A study of Drosophila melanogaster with 21 samples.

Results

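Gene expression in the female lower tract of Drosophila melanogaster was compared between 24 h after the end of mating (n = 3 arrays) and the unmated state (n = 5 arrays), over all 13966 probe sets that were not controls among the 14010 on the array. These 8 arrays belong to a series of 21 single-colour oligonucleotide arrays, of which 6 were made right after mating (0 h), 4 after 3 h and 3 after 6 h. Arrays were chosen by their labels alone and probe sets by no measured value. Females of both groups were 3 days old and were held at 23 C with equal hours of light and dark. The dissected tissue held the upper uterus, the sperm-storage organs and the accessory glands, and RNA was pooled from 12 to 40 females per array. Unmated females were dissected at times spread between those of the mated ones. The strain, and the males that the mated females received, are not given in the sources used here. Whether the females of the 24 h group were 3 days old at mating or at dissection is not stated either.

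After mating, the lower tract of a fly holds and sorts sperm in the seminal receptacle and the spermathecae, takes up seminal proteins, and passes and fertilises eggs. Its spermathecae and accessory glands secrete proteases and other proteins into the lumen. Receipt of sex peptide, a seminal protein, keeps females laying eggs and unwilling to remate for days, so 24 h falls within the period of high egg laying.

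The tissue label was set against marker genes. Send1, a serine protease of the spermathecae, had a signal of 8368 to 23969 on the unmated arrays and of 5405 to 7023 at 24 h. The 5 spermathecal markers summed to 8536 to 24159 in unmated females and 5593 to 7134 at 24 h, most of it from Send1. Only 2 of the 5 had a group mean signal above that group's median probe set, in unmated females and at 24 h alike. The yolk protein gene Yp1, a product of fat body and ovarian follicle cells, had a signal of 21716 to 43155 in unmated females and of 20706 to 28163 at 24 h. The 6 fat body markers summed to 68197 to 125013 in unmated females and 62535 to 79048 at 24 h, so both groups carried RNA of that kind. The 5 male accessory gland markers summed to 70.9 to 169 in unmated females and 47.1 to 166 at 24 h. All 4 measured neuronal markers had a group mean signal below that group's median probe set, both before mating and at 24 h. In pooled tissue, fewer cells of a type and less RNA per cell cannot be told apart.

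Array numbers in the labels cluster, and were cut into 6 blocks wherever consecutive numbers lay over 20 apart, although no label states a batch. The third block held 24 h replicate 1 together with unmated replicates 4 and 5, and is the only one with both groups. Unmated replicates 1, 2 and 3 made up the first block. Replicate 2 at 24 h shared the fourth block with arrays at 0 h and 6 h, and replicate 3 shared the sixth with 1 array at 6 h. The first principal component of the brighter probe sets carried 29.9% of their variance. It put 24 h replicate 3 at -50.4, away from 24 h replicates 1 and 2 at 41.1 and 26.9 and from the unmated arrays at -5.15 to 34.9. Block accounted for 94.5% of this component and group for 23.5%. The log2 signals of the 24 h arrays correlated with each other at 0.843 to 0.907 across probe sets, which are not independent replicates. The ratio of 3' to 5' control signal, a sign of RNA integrity, was 3.78 ± 1.48 on the log2 scale at 24 h (SD, n = 3) and 3.90 ± 2.01 in unmated females (SD, n = 5). A higher ratio means less 5' signal, and single arrays differed widely behind these similar means. It was 2.02, 3.84, 1.93, 5.08 and 6.62 on unmated replicates 1 to 5, and 5.28, 3.72 and 2.33 at 24 h.

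No probe set differed between 24 h and unmated females at an adjusted p of 0.05. The test was limma's moderated test on the log2 signal of all 21 arrays, with Benjamini-Hochberg adjustment. The share called was 0% in each direction, and the smallest adjusted p was 0.327. An unadjusted p under 0.05 was met by 365 probe sets in the higher and 732 in the lower direction. The median log2 difference of all probe sets was -0.10, and 42.7% lay above 0. All 3 arrays at 24 h lay above all 5 unmated arrays for 288 probe sets (2.06% of those tested) and below them for 390 (2.79%).

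The count of 0 depended on the processing. With the array-number block as a fixed term, 4 probe sets were higher and 6 lower. With arrays weighted by their fit, 6 were higher and 1 lower, and without 24 h replicate 1, 9 were higher and 2 lower. Without unmated replicate 2, 2 were lower, and with log2 of the signal plus 16, 1 was higher. The gene CG13813 gave that single call, at a log2 difference of 1.94 (limma adjusted p = 0.0398). The lower calls without unmated replicate 2 included tobi, at -2.21 (limma adjusted p = 0.0426).

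The 95% interval of the log2 difference reached, at the median, 1.15 to either side of the estimate. This reach was 0.87 for the 6983 probe sets brighter than the median and 1.41 for the dimmer ones. The interval lay wholly within 4-fold either way for 69.5% of probe sets and within 2-fold for 16.7%. Among the brighter ones these shares were 88.5% and 30.2%.

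**Figure D1:**
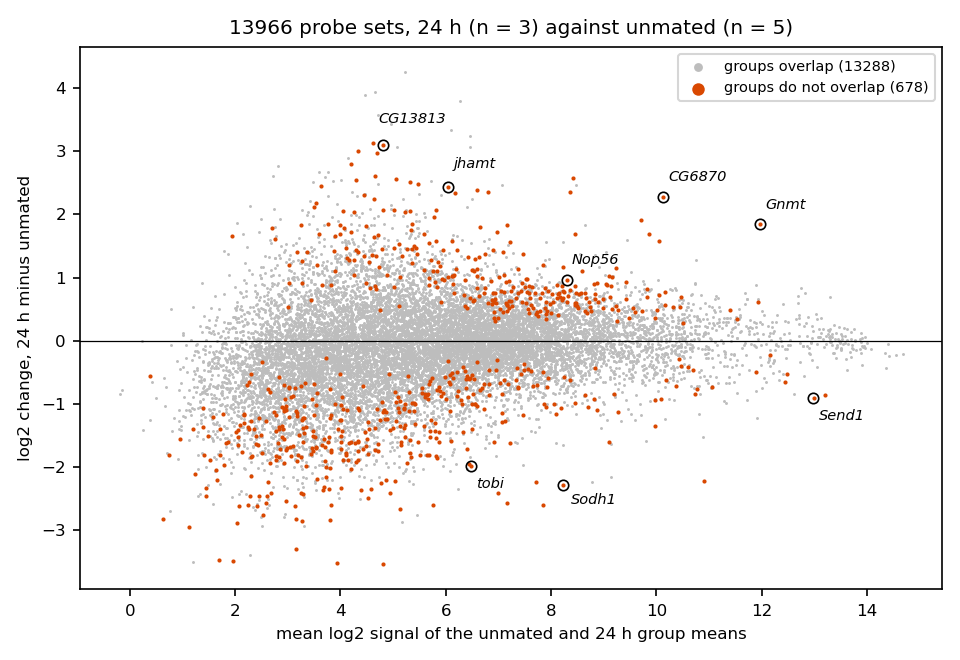
Each point is 1 of the 13966 probe sets. The x axis is the mean of the group means of log2 signal, the y axis the log2 difference of 24 h minus unmated, and orange points are the probe sets whose groups do not overlap. Low signals scatter widely, and circled genes are named in the text.

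The genes with the smallest p are given with their values on every array, although none passed the threshold. The uncharacterised gene CG13813 had signals of 5.3, 11.3, 15.9, 9.5 and 9.0 in unmated females and of 135.7, 61.3 and 67.9 at 24 h. All 3 arrays at 24 h lay above all unmated arrays, by a log2 difference of 3.11 ± 0.60 (SE; limma adjusted p = 0.327). Its signal in unmated females was below that of the median probe set, so the size of this difference is uncertain. In the block with both groups the difference was 3.88.

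The gene jhamt encodes juvenile hormone acid methyltransferase, which acts at the end of juvenile hormone synthesis. Its signals were 24.6, 39.2, 56.6, 54.7 and 6.2 in unmated females and 153.8, 108.5 and 217.5 at 24 h. Every 24 h array was above every unmated array, and the log2 difference was 2.44 ± 0.59 (limma adjusted p = 0.356). Its geometric mean was 28.4 before mating, 134 at 0 h, 847 and 812 at the 3 h and 6 h times, and 154 by 24 h. The difference of 24 h from 3 h was -2.46 and from 6 h -2.40, neither past the threshold (limma adjusted p = 0.274 and 0.384). Of the 12 juvenile hormone genes measured, 5 lay above 0, with a median of -0.08 against -0.07 for all 10844 genes.

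Gnmt encodes glycine N-methyltransferase, which uses S-adenosylmethionine as methyl donor. It had signals of 2893, 679.7, 2507, 2735 and 3075 in unmated females and of 6049, 6917 and 10274 at 24 h. All 24 h arrays lay above all unmated arrays, of which replicate 2 was far below the other 4. The log2 difference was 1.84 ± 0.44 (limma adjusted p = 0.356), and 1.06 within the block that held both groups. CG6870 had signals of 885.1, 94.2, 550.0, 588.1 and 1233 before mating and of 2191, 2078 and 3220 at 24 h. Again unmated replicate 2 was the lowest and the groups did not overlap, with a log2 difference of 2.27 ± 0.55 (limma adjusted p = 0.356).

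Nop56, a core protein of the nucleolar particles that guide methylation of ribosomal RNA, had a small and even difference. Its signals were 190.6, 239.3, 206.2, 228.5 and 270.8 in unmated females and 403.0, 502.4 and 419.8 at 24 h. The groups did not overlap, and the log2 difference of 0.96 ± 0.24 (limma adjusted p = 0.356) had a 95% interval from 0.47 to 1.46. The remaining 7 of the 12 higher genes with the smallest p were feo, a spindle midzone protein, U3-55K of the U3 small nucleolar particle, the nucleoporin Nup37, wda of a histone acetyltransferase complex, the protease gene spirit of the Toll pathway, CG4702 and CG12643. Their log2 differences were 1.69 to 3.01, and spirit and wda overlapped with the unmated arrays.

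On the lower side, tobi had the smallest p. It encodes an alpha-glucosidase known as a target of brain insulin. Its signals were 149.1, 95.8, 350.9, 170.2 and 210.3 in unmated females and 60.6, 30.3 and 49.1 at 24 h. The groups did not overlap, and the log2 difference was -1.99 ± 0.37 (limma adjusted p = 0.327). Within the block with both groups it was -1.64.

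The other 11 lower genes with the smallest p were Rcd7, PlexB, CG16741, CG31869, CG42685, Elba3, Br140, CG10182, CG9632, sut4 and Cdep. PlexB is a semaphorin receptor, sut4 a sugar transporter, Br140 a bromodomain protein and Elba3 a factor of chromatin insulators. Their differences ran from -3.49 to -1.59, and CG16741 alone overlapped with the unmated arrays. Only Cdep, a FERM-domain protein, had a geometric mean above 60 in unmated females, where it was at 119 and at 24 h at 39.5. For the other 10 the mean at 24 h was 1.16 to 14.2, at the dim end of the array. A second probe set gave -2.06 for Cdep and -1.57 for CG31869, the same direction.

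**Figure D2:**
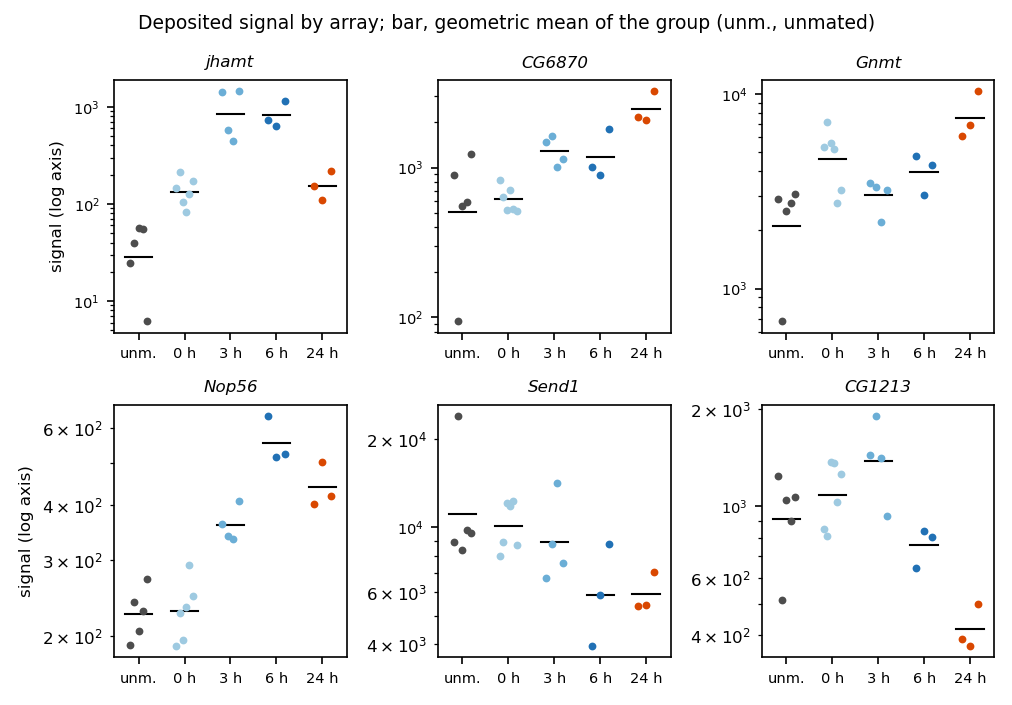
Deposited signal of 6 genes on every array, on a log axis, for unmated females (unm.), and for 0, 3, 6 and 24 h after mating. The bar is the geometric mean of each group. The 24 h arrays of jhamt, CG6870, Gnmt and Nop56 lie above all unmated arrays and those of Send1 and CG1213 below them.

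Direct contrasts of 24 h with each earlier time, in which the unmated arrays cancel, gave calls. Against 3 h, 11 probe sets (0.0788% of those tested) were lower at 24 h and 4 (0.0286%) were higher. Against 6 h, 4 (0.0286%) were lower and 1 (0.00716%) was higher. Against 0 h, 2 (0.0143%) were lower and none (0%) was higher. At an unadjusted p under 0.05, where some pass by chance, 353 were higher and 410 lower than at 0 h. Several of these genes were followed because they stood apart from unmated females at 3 h or 6 h on the same arrays, so their contrasts are not independent evidence. For these genes the level at 24 h is set beside the unmated one.

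Send2 encodes a serine protease of the spermathecae. Its signals were 298.9, 75.2 and 50.9 at 24 h and 63.5, 119.5, 12.7, 131.2 and 107.0 in unmated females, so the groups overlapped. The geometric mean was 389 at 0 h, 9935 at 3 h and 7900 at 6 h, against 105 at 24 h. The signal at 24 h was lower than at 3 h by a log2 difference of -6.57 ± 0.75 (limma adjusted p = 0.000242) and 75.5-fold lower than at 6 h (-6.24 ± 0.81, limma adjusted p = 0.003). The 24 h minus unmated difference was 0.64, with a 95% interval from -0.86 to 2.15, which is wide. The call against 6 h was lost with only the arrays of those groups (limma adjusted p = 0.447) and without the sixth block.

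Send1 did not follow Send2. Its signals were 8951, 23969, 8368, 9833 and 9557 in unmated females and 5405, 5432 and 7023 at 24 h. The groups did not overlap, but the log2 difference of -0.91 ± 0.37 did not pass the threshold (limma adjusted p = 0.585). Of the 11 spermathecal secretory genes measured, 3 lay above 0 at 24 h, with a median log2 difference of -0.09. Send1 was the 1 gene of this list whose groups did not overlap.

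PGRP-SC2 encodes an amidase that degrades bacterial peptidoglycan. It had signals of 142.4, 132.6 and 301.4 at 24 h and of 185.2, 116.1, 284.8, 78.7 and 84.2 in unmated females, with clear overlap. Its geometric mean was 1110 at 3 h and 1972 at 6 h, and 178 at 24 h. The level at 24 h was 6.22-fold lower than at 3 h (limma adjusted p = 0.017) and 11.0-fold lower than at 6 h (limma adjusted p = 0.00339). The call against 3 h was lost in 6 of 18 alternatives, among them those without 24 h replicate 1 or 2 or 3 h replicate 2, 3 or 4 (limma adjusted p up to 0.252). The call against 6 h was lost with only those groups (limma adjusted p = 0.701). The difference from unmated females was 0.43, with an interval from -0.46 to 1.32. Of the 7 peptidoglycan recognition proteins measured, 1 lay above 0 at 24 h. PGRP-LA was the 1 gene of them without overlap, at 125.2 to 322.0 in unmated females and 77.4 to 102.0 at 24 h (log2 difference -1.15, limma adjusted p = 0.424). Its second, dimmer probe set pointed the other way, at 0.86 (limma adjusted p = 0.708).

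CAH8, a member of the carbonic anhydrase family, had signals of 148.7, 279.6 and 172.0 at 24 h, inside the unmated range of 127.1 to 401.4. The level at 24 h was 15.5-fold lower than the geometric mean of 2986 at 3 h (log2 difference -3.95 ± 0.47, limma adjusted p = 0.000269). The 3 h call held in all 18 alternatives run for it. Against 6 h, where the mean was 234, the difference was -0.28, with a limma adjusted p of 0.953.

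CG42284 was higher at 24 h than at 3 h. Its signals were 460.1, 321.7 and 144.7 at 24 h and 355.3 to 589.8 in unmated females, so that 24 h replicate 1 lay inside and replicates 2 and 3 below the unmated range. At 3 h its geometric mean was 8.24, and the level at 24 h was 33.7-fold higher (log2 difference 5.08 ± 0.57, limma adjusted p = 0.000242). The call was lost in 1 of 18 alternatives, the fit with only the 24 h and 3 h arrays (limma adjusted p = 0.111). Against unmated females the difference was -0.69, with an interval from -1.83 to 0.45. A second, dimmer probe set of CG42284 differed from 3 h by 0.13 (limma adjusted p = 0.998), so the pair disagreed.

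**Figure D3:**
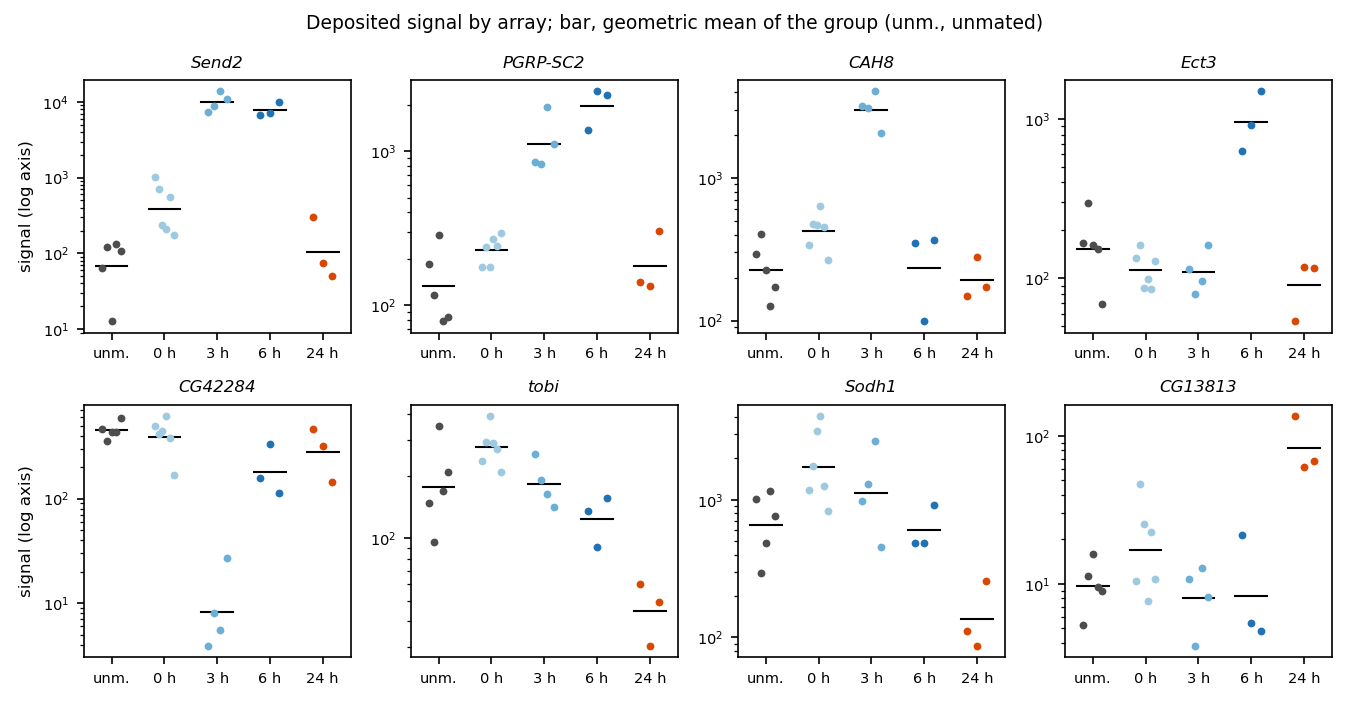
Deposited signal of 8 genes on every array, on a log axis, for unmated females (unm.) and 4 times after mating. The bar is the geometric mean of each group. Send2, PGRP-SC2, CAH8 and Ect3 are lower at 24 h than at 3 h or 6 h, CG42284 is higher at 24 h than at 3 h, and tobi, Sodh1 and CG13813 stand apart at 24 h.

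Further genes lower at 24 h than at 3 h were CG18088 (17.2-fold), stum (10.7-fold), CG42327 (7.92-fold), CG11426 of the lipid phosphatase family (7.15-fold), CG1213 (3.32-fold) and the choline transporter-like gene Ctl2 (3.11-fold). The second probe sets of stum and CG42327 gave -0.27 and -0.09 against 3 h, neither past the threshold (limma adjusted p = 0.991 and 0.998). Each of these calls against 3 h was lost in many alternatives. CG18088 and stum passed in 10 of 17, Ctl2 in 10 of 18, CG42327 in 8 of 17, CG11426 and CG1213 in 7 of 18, and CG13813, also higher than at 3 h, in 5 of 17. Lower than at 6 h were Ect3, which encodes a beta-galactosidase (10.5-fold, limma adjusted p = 0.00339), and CG8180 (12.5-fold, limma adjusted p = 0.0143), which passed in 15 of 17 and 11 of 16 alternatives. In Ect3 the 24 h signals of 53.9, 118.1 and 116.8 lay within or just below the unmated range of 69.0 to 298.8. A probe set of the mitochondrial cytochrome P450 gene Cyp49a1 was 14.0-fold higher at 24 h than at 3 h (limma adjusted p = 0.0101). The second probe set of that gene differed by 0.28 on the log2 scale (limma adjusted p = 0.991), so the pair disagreed.

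At 24 h, CG42327 and CG1213 had no array within the unmated range. CG1213 had signals of 1241, 512.6, 1047, 903.5 and 1069 in unmated females and of 389.5, 369.9 and 499.9 at 24 h. The groups did not overlap, with a log2 difference of -1.14 ± 0.32 that did not pass the threshold (limma adjusted p = 0.386). For CG42327 the unmated arrays spread from 11.6 to 123.5 and those at 24 h lay at 8.5 to 10.5, while its second probe set differed by 0.48.

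Against 0 h the 2 calls were tobi and Sodh1. The level of tobi at 24 h was 6.14-fold lower than at 0 h (log2 difference -2.62 ± 0.36, limma adjusted p = 0.00809) and 4.09-fold lower than at 3 h (limma adjusted p = 0.0454). Sodh1, a sorbitol dehydrogenase, had signals of 111.5, 86.8 and 255.5 at 24 h and of 1008, 291.7, 483.3, 1153 and 763.9 in unmated females. Its geometric mean was 1734 at 0 h, and the level at 24 h was 12.8-fold lower (log2 difference -3.68 ± 0.58, limma adjusted p = 0.0273). The 24 h and unmated groups did not overlap, at a log2 difference of -2.29 ± 0.60 (limma adjusted p = 0.383). The Sodh1 call against 0 h was lost without 24 h replicate 1 or 2 or 0 h replicate 2, 3 or 4, with the fixed block, and with only those groups (limma adjusted p up to 0.403). The tobi call against 0 h was lost in 3 of 20 alternatives, and that against 3 h in 12 of 18 (limma adjusted p up to 0.417).

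All 11 glycolytic genes measured lay below 0 at 24 h against unmated females, with a median log2 difference of -0.42, and none passed the test. Over all genes the median was -0.07 and 4866 of 10844 lay above 0. The lowest were Hex-t2, a hexokinase gene with low signal here (-2.43), Ald1 (-0.95), Hex-A and Pfk (each -0.86). Pfk encodes phosphofructokinase, and its signals were 459.8, 768.9, 457.5, 552.6 and 514.9 in unmated females and 398.0, 288.3 and 227.8 at 24 h. Pfk and Hex-t2 were the 2 of 11 with all 24 h arrays below all unmated arrays, against 286 of all 10844 genes. The median stayed between -0.56 and -0.26 in the 20 alternatives, and was -0.44 within the block with both groups. Against the unmated mean, the list's median was -0.50, -0.43 and -0.27 on 24 h replicates 1, 2 and 3. On the unmated arrays it ran from -0.30 to 0.27, so 24 h replicate 3 lay inside the unmated range.

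Genes of DNA replication and the cell cycle lay higher at 24 h as a list, again with no member past the test. Of 35 measured, 31 lay above 0, and the median log2 difference was 0.85 against -0.07 for all genes. At 3 h and 6 h the list's median difference from unmated females was 0.04 and 1.48, so it was larger at 6 h than at 24 h. All 24 h arrays lay above all unmated arrays for 4 of the 35, against 256 of all 10844 genes. These were Mcm3 and Mcm6 of the replicative helicase (2.03 and 1.82), the single-strand binding protein RPA2 (0.98) and the transcription factor E2f2 (1.40), of which Mcm3 and Mcm6 were chosen after their values were seen. E2f2 had signals of 90.8, 88.5, 99.0, 79.5 and 67.3 in unmated females and of 173.6, 280.6 and 225.5 at 24 h. The list's median against the unmated mean was 0.51 on 24 h replicate 1, 0.93 on replicate 2 and 1.02 on replicate 3. On the unmated arrays it ran from -0.25 to 0.47, so replicate 1 lay close to unmated replicate 2.

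Within the block with both groups the replication list's median was 0.34. PCNA, the sliding clamp of replication, showed this spread, at 80.5, 194.7 and 383.3 on the 24 h arrays and 65.3 to 118.6 in unmated females. Markers of germline and oocyte were read on the same arrays. Their sum was 216, 97.0 and 568 on 24 h replicates 1, 2 and 3 and 65.6 to 168 in unmated females. Of the 6 markers measured, 5 lay above 0, with a median log2 difference of 1.41. None had a group mean signal above that group's median probe set in unmated females, and 2 did at 24 h, so this median rests on dim signals. Second, dimmer probe sets gave -1.08 for orb and 0.27 for swa. The part of these markers' tissue in the result was not tested.

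The 40 germline and oocyte genes measured had a median of -0.07, equal to that of all genes to 2 decimals, and 18 lay above 0. Against the unmated mean their median was 0.20 on 24 h replicate 1, -0.36 on replicate 2 and 0.23 on replicate 3. RpS5b, swa, pgc and Hsp26, among the genes followed from 3 h or 6 h, each had their highest 24 h signal on replicate 3. RpS5b, a ribosomal protein gene of the ovary, had signals of 155.2, 1275 and 3006 at 24 h and 75.1 to 249.9 in unmated females. The oocyte gene swa was at 63.2, 25.4 and 151.0 against 3.6 to 34.8, the germline gene pgc at 50.9, 31.6 and 190.8 against 9.3 to 52.7, and the heat shock gene Hsp26 at 23.8, 6.1 and 277.2 against 12.5 to 47.2. All 4 overlapped with the unmated arrays, and a second probe set of swa differed by 0.27 where the first gave 2.48.

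Glutathione S-transferases, which conjugate glutathione to toxic compounds, lay above 0 in 24 of 34 cases, with a median of 0.37. No member passed the test. The 24 h arrays lay above all unmated arrays for 6 of the 34, GstD4, GstD11, GstE8, GstE13, GstO1 and GstO3, as they did for 256 of all 10844 genes. GstD4 had signals of 30.6, 33.9, 27.1, 13.2 and 17.6 in unmated females and of 66.1, 55.6 and 69.4 at 24 h. The list's median on the 24 h arrays was 0.14, 0.23 and 0.62, so replicate 3 was the highest, and within the block with both groups it was 0.04. On the unmated arrays it ran from -0.04 to 0.19, so 24 h replicate 1 lay inside the unmated range. MsrA, taken from the ecdysone list, is a methionine sulfoxide reductase that repairs oxidised proteins. It was at 1032, 2057 and 1994 at 24 h and at 162.3 to 796.8 in unmated females, with no overlap (log2 difference 1.91, limma adjusted p = 0.435).

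Oxidative phosphorylation genes differed between the 24 h arrays more than between the groups. Their list of 70 had a median of 0.20 with 50 above 0, but the median was -0.28 on 24 h replicate 1, 0.05 on replicate 2 and 0.71 on replicate 3. With the array-number block as a fixed term it turned to -0.27, and within the block with both groups it was -0.20. The 31 ribosomal protein genes gave -0.30, -0.17 and 0.34 on the same arrays, so 24 h replicate 3 was the highest in both lists.

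**Figure D4:**
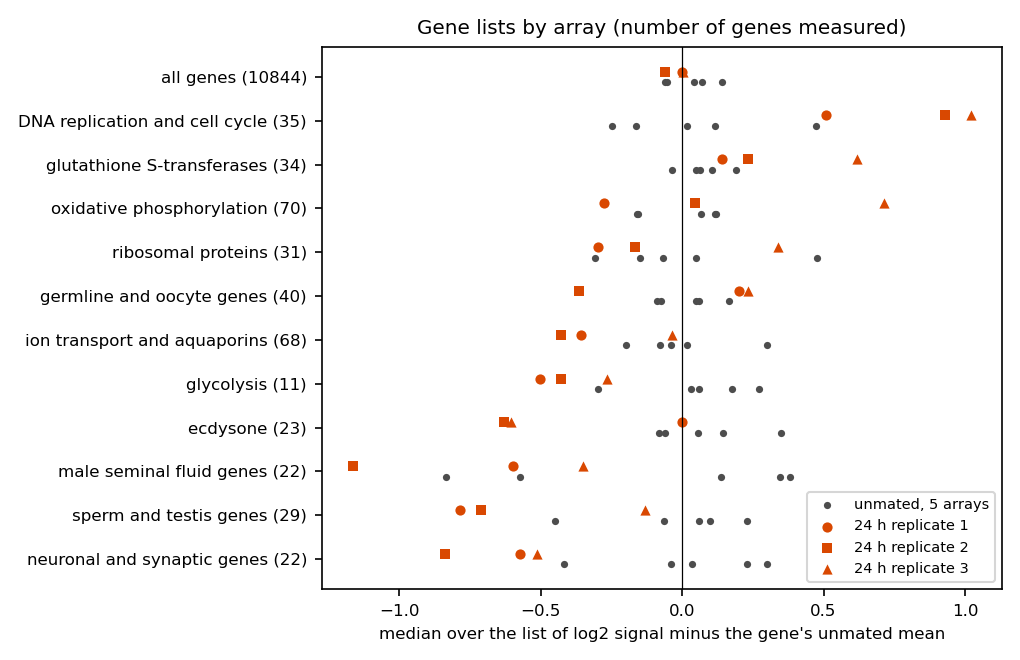
Median over each gene list of the log2 signal minus the unmated mean of each gene, for the 5 unmated arrays and the 3 arrays at 24 h. The replication list lies at 0.51 to 1.02 at 24 h, glycolysis at -0.50 to -0.27, and oxidative phosphorylation spreads from -0.28 to 0.71.

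Several lists lay below the median of all genes at 24 h, none with a member past the test. Neuronal and synaptic genes had a median of -0.63 with 5 of 22 above 0, sperm and testis genes -0.48 with 7 of 29, male seminal fluid genes -0.58 with 6 of 22, and ecdysone genes -0.49 with 4 of 23. Most of their members are dim. The list medians by array were set against the unmated mean. Inside the unmated range lay ecdysone genes on 24 h replicate 1 (0.00) and sperm and testis genes on replicate 3 (-0.13). Seminal fluid genes lay inside it on replicates 1 and 3 (-0.60 and -0.35), and neuronal genes on none. At 3 h the median differences of neuronal, sperm and testis, seminal fluid and ecdysone genes were -0.51, -0.62, -0.84 and -0.32. At 6 h they were -1.03, -0.32, -0.59 and -0.60. The 4 neuronal genes brighter than the median probe set had a median of 0.12, and the ecdysone list stood at 0.08 within the block with both groups. All 24 h arrays lay below all unmated ones for 1 of the 22 seminal fluid genes and 3 of the 29 sperm and testis genes, and above them for none, against 286 and 256 of all 10844 genes. Ion transport genes had a median of -0.20 with 20 of 68 above 0. Of these, 6 lay below all unmated arrays, Best4, nrv3, ppk12, ppk19 and the proton pump subunits Vha26 and VhaSFD, beside 286 of all 10844 genes. The sodium channel family gene ppk19 was at 16.8 to 52.1 in unmated females and at 8.1, 4.7 and 9.9 at 24 h.

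Antimicrobial peptides had a median of -0.29 with 3 of 8 above 0, and Toll and Imd signalling genes -0.03 with 11 of 24. The defensin gene Def was at 702.1, 423.2 and 2057 at 24 h and at 996.6 to 2347 in unmated females, so its 24 h arrays lay on both sides. Basement membrane, matrix and integrin genes had a median of -0.25 with 9 of 29 above 0, and it was 0.07 without 24 h replicate 3. Of these trol, which encodes perlecan, was at 97.8, 64.4 and 53.1 at 24 h and at 339.7, 225.8, 423.5, 102.7 and 127.8 in unmated females. The unmated arrays of trol split by block, with replicates 4 and 5 near the 24 h arrays, and within that block the difference was -0.23 against -1.61 over all arrays. A second, dimmer probe set of trol gave -1.88 over all arrays (limma adjusted p = 0.435).

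A small group of genes was high on 24 h replicates 2 and 3 and at the unmated level on replicate 1. These genes were chosen after their values were seen, among those past the threshold when replicate 1 was left out. CG13427 had signals of 16.4, 1231 and 807 at 24 h and of 14.4 to 53.0 in unmated females. CG4440 was at 9.5, 1005 and 1090 against 4.6 to 66.6. Tom, a Bearded-family inhibitor of Notch signalling, was at 35, 805 and 268 against 30.8 to 102.8.

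CG8960 was at 3.0, 186.7 and 71.5 at 24 h and at 2.9 to 11.1 in unmated females, and link was at 5.3, 234.5 and 89.3 against 3.0 to 10.6. Z600, an inhibitor of mitosis in the early embryo, was at 3.8, 82.3 and 30.5 against 3.3 to 9.5. In each of these 6 genes, 24 h replicates 2 and 3 lay above every unmated array and replicate 1 did not. The septin gene Septin5 was at 4.8, 96.2 and 58.9 against 3.7 to 12.5, and at 6 h its geometric mean was also above the unmated one, at 25.3 against 6.15. With all 3 arrays at 24 h, none of these genes passed the test, with log2 differences of 2.04 to 3.35 (limma adjusted p from 0.385 to 0.554).

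Without 24 h replicate 1, the log2 difference was 5.04 for CG13427, 5.61 for CG4440 and 3.28 for Z600. The genes were chosen by that fit, so its p-values are no evidence for them and are not given. Replicate 1 is the 24 h array that shares a block with unmated arrays, and replicates 2 and 3 share none. The geometric means of CG13427 at the 0, 3 and 6 h times were 23.0, 17.2 and 31.5, and those of Z600 6.37, 4.36 and 4.12. The 6 h arrays of the blocks that hold 24 h replicates 2 and 3 were at 16.9 and 23.2 for CG13427 and at 2.6 and 6.4 for Z600.

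Since Z600 acts in the blastoderm embryo, 29 measured genes of the early embryonic programme were listed, after the values of Z600 were known. The list includes Z600 itself, which had its highest log2 difference, 2.04, so the list is not independent of that gene. Of the 29, 19 lay above 0, with a median of 0.22, and it was -0.17, 0.76 and 0.04 on 24 h replicates 1, 2 and 3. The median was -0.03 for the 9 members brighter than the median probe set, and -0.03 within the block with both groups. It changed sign in 3 of 20 alternatives, and every member's groups overlapped. The genes term and sna were likewise chosen after their values were seen. The early gene term was at 15.1, 145.3 and 37.9 at 24 h and at 8.7 to 24.5 in unmated females. The mesoderm gene sna was at 57.6, 214.3 and 104.3 against 23.2 to 96.7. A second probe set of term gave -1.65 against unmated females (limma adjusted p = 0.585), opposite to 1.32 for the first. What these levels derive from was not tested.

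**Figure D5:**
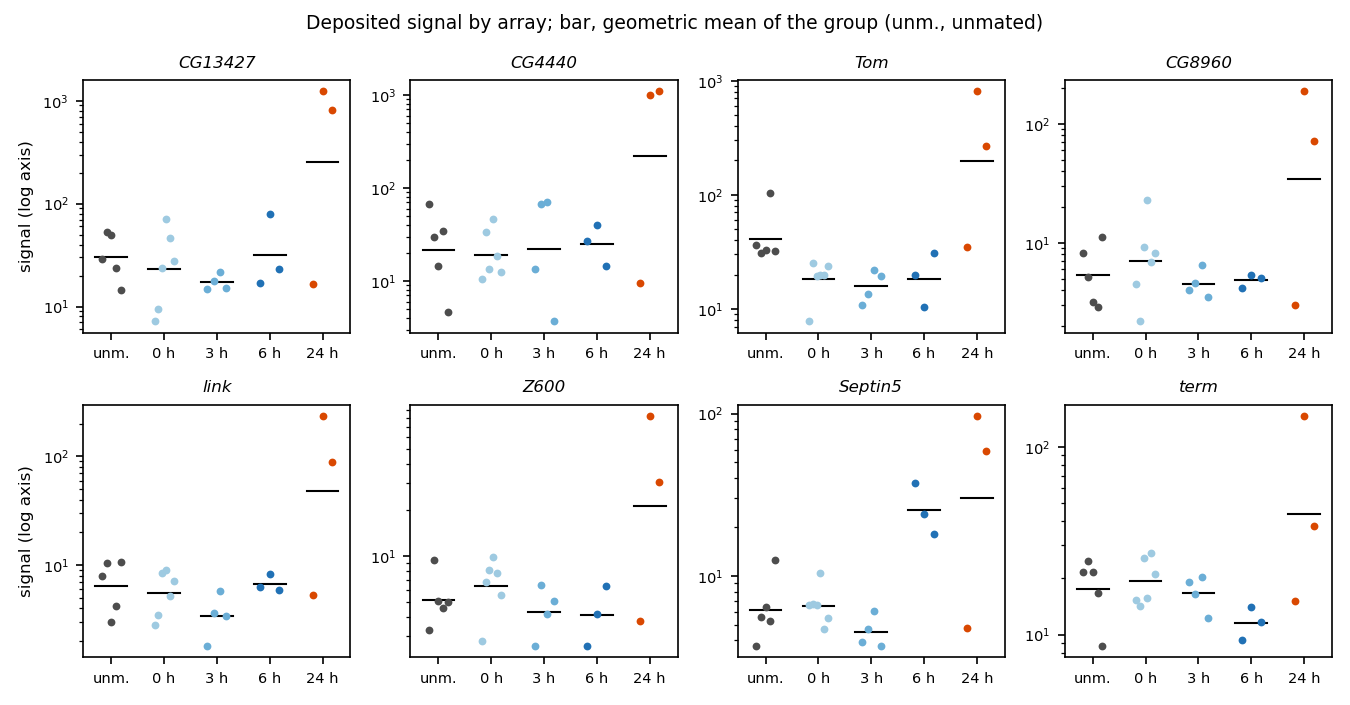
Deposited signal of 8 genes on every array, on a log axis, for unmated females (unm.) and 4 times after mating. The bar is the geometric mean of each group. At 24 h, 2 of the 3 arrays are high and the other lies among the unmated arrays.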

How the data were processed

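Arrays were grouped by the description in their labels, and replicate numbers follow accession order and only name arrays. The authors deposited 1 linear intensity per probe set and array. RMA is named, without a version, in the submitters' processing notes, but the deposited intensity values are not on a log scale and share a trimmed mean of 150 on every array, so how probes were summarised is not settled. The software and the scaling are not given in the sources used here. Median signal per array was 35.6 to 57.7.

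Signals were converted to log2 as deposited, without an added constant or rescaling. The 44 control probe sets were left out. All 21 arrays in 5 groups were fitted with limma (version 3.58.1, R 4.3.3, lmFit and eBayes), and each contrast was adjusted by Benjamini-Hochberg over 13966 probe sets. Probe sets had 1 symbol (12443), several (327) or none (1196) in the platform annotation, and 12394 symbols were updated through gene identifiers against the Release 6 plus ISO1 MT table. For genes with several probe sets the brightest one on average stood for the gene. Named genes were the 12 with the smallest p in each direction, 2 per list, a set followed from 3 h or 6 h, and genes called against earlier times. Further genes were chosen after their values were seen, and only some are marked as such in the text. Other list members named for the lowest difference or for no overlap were picked by those values. Members and lists were chosen with earlier results of these data known. Nothing in the labels says that pools came from separate cultures, so p-values measure the spread between these pools. They treat arrays as independent, although limma put the correlation within a block, after the group means were fitted, at 0.311. The number of arrays limits the precision. The fit was tested on simulated data. Alternatives were other scalings, filters, moderation, weights, covariates, the array-number block and leaving out each array.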

Additional observations from a re-analysis of the deposited data

Results flagged for a closer look

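In unmated females, 7 of the 70 genes examined had 1 array far from the other 4. The gap to the nearest array is given as a part of the group's range on the log2 scale. Chance gives such an array in about 1 of 20 groups. Unmated replicate 2 was that array in 4 of them, lowest for Gnmt (0.865 of the range) and highest for Send1 (0.847), tor (0.85) and Mp (0.72). Unmated replicate 5 was the highest for sut4 (0.78) and the lowest for Syn (0.804), and unmated replicate 4 was the highest for Tom (0.868). Groups of 3 arrays, such as 24 h, were not examined in this way.

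The change from unmated females at 24 h differed from that at an earlier time by limma's contrast, on the log2 scale. Against 0 h it differed by -3.68 for Sodh1 and -2.62 for tobi. Against 3 h the lower genes were Send2 (-6.57), CG18088 (-4.10), CAH8 (-3.95), stum (-3.41), CG42327 (-2.99), CG11426 (-2.84), PGRP-SC2 (-2.64), tobi (-2.03), CG1213 (-1.73) and Ctl2 (-1.64), with a probe set of no single gene symbol at -2.17. The higher ones against 3 h were CG42284 (5.08), Cyp49a1 (3.81), CG13813 (3.36) and a probe set of no single symbol (5.90). Against 6 h they were Send2 (-6.24), CG8180 (-3.64), PGRP-SC2 (-3.47), Ect3 (-3.39) and a probe set of no single symbol (2.93).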

How the results depend on the processing

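Against unmated females, the count of 0 in both directions held with quantile normalization, median centring, the brighter probe sets, only the 24 h and unmated arrays, the random block, trend and robust moderation, the 3' to 5' covariate, a single probe set for each gene, a minimum of 1.5-fold and an adjusted p of 0.1. It became 1 higher with log2 of signal plus 16, 4 higher and 6 lower with the fixed block, and 6 higher and 1 lower with array weights. Leaving out 1 array gave 0 to 9 higher (9 without 24 h replicate 1) and 0 to 2 lower. The causes were not tested.

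Against 0 h (0 higher, 2 lower), the lower count was 4 with log2 of signal plus 16, the brighter probe sets, the random block, or trend and robust moderation, 0 with only the groups compared or the fixed block, and 31 with array weights, which gave 15 higher. Leaving out 1 array gave 0 to 9 higher (9 without 24 h replicate 1) and 0 to 2 lower (0 without 24 h replicate 2). Against 3 h (4 higher, 11 lower), higher counts were 7 with log2 of signal plus 16, 1 with the brighter probe sets or the fixed block (3 lower), 0 with only the groups compared (4 lower), 2 with the random block and 82 with array weights (51 lower). Leaving out 1 array gave 1 to 13 higher (13 without 24 h replicate 1) and 2 to 8 lower (2 without 24 h replicate 2 or 3 h replicate 2). Without the sixth block, an alternative chosen after seeing the data, as were all for these 3 contrasts, 2 were higher and 3 lower. Against 6 h (1 higher, 4 lower), higher counts were 0 with quantile normalization, median centring or only the groups compared (0 lower), 2 with log2 of signal plus 16, 3 with the brighter probe sets, the fixed block or trend and robust moderation, 5 with the random block and 7 with array weights. Leaving out 1 array gave 0 to 10 higher (10 without 6 h replicate 1, 7 without 24 h replicate 1) and 3 to 4 lower, and the lower count was 2 without the sixth block. Among the named genes called against an earlier time and rerun under the alternatives, which leaves out Cyp49a1 and the probe sets without a single symbol, no log2 difference changed sign. The log2 differences from unmated females of CG13427, CG4440, CG8960, link, Septin5, Tom and Z600, called without 24 h replicate 1, each changed sign in 1 alternative.

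No paired analysis was possible because replicate numbers follow accession order. The dimmer probe sets had wide intervals, and only 1 array-number block holds both groups.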

Other observations

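Eggshell genes were measured in both groups. Of 17 chorion and vitelline membrane genes, 10 lay above 0 at 24 h, with a median log2 difference of 0.11, and none passed the test. Vm34Ca, a vitelline membrane protein gene of follicle cells, was at 366.0, 311.7 and 434.8 at 24 h and at 177.6 to 247.4 in unmated females, without overlap (log2 difference 0.75, limma adjusted p = 0.553). The late follicle cell markers summed to 724 to 993 at 24 h and 549 to 1192 in unmated females. Cyp6a8, a cytochrome P450 of xenobiotic response, was at 203.7, 280.3 and 290.5 at 24 h and at 48.7 to 165.4 in unmated females (log2 difference 1.56, limma adjusted p = 0.424), while the 80 cytochrome P450 genes had a median of -0.03.

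The pepsin-family protease gene CG17134 stayed above the unmated range on part of the 24 h arrays. Its signals were 130.9, 72.7 and 6.2 at 24 h and 3.5 to 15.1 in unmated females, and its geometric means at 3 h and 6 h were 347 and 446. The nuclear gene Eip93F of the ecdysone list was at 6.1, 9.9 and 13.3 at 24 h and at 18.5 to 65.1 in unmated females (log2 difference -1.78, limma adjusted p = 0.383). The small heat shock gene l(2)efl was at 1752, 1724 and 1893 at 24 h, inside the unmated range of 869.0 to 1810 for 2 of the arrays, with geometric means of 2652 at 3 h and 3922 at 6 h.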
